A study of Homo sapiens with 4 samples.

Results

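The plasminogen activator system and the genes that start and restrain coagulation were followed as a set of 9 genes: PLAU, PLAUR, PLAT, SERPINE2, SERPINB2, F3, TFPI, TFPI2 and THBD. They were chosen by name, with earlier results of these data known. A probe was taken as theirs when its gene name in the array files was one of the 9 or its RefSeq transcript belonged to one of them. This gave 12 probes among the 50238 different probes of the array, with 2 probes each for SERPINB2, TFPI and TFPI2. The cells were A549, a human lung adenocarcinoma line, kept in low-serum medium (2% FBS) before treatment. In the control group 2 samples were left untreated (0 µM embelin) for 4 h, and in the embelin group 2 samples received embelin, a benzoquinone from the fruits of Embelia ribes, at 15 µM for 4 h. Each sample was labelled with the dye Cy3 and hybridized to 1 array. The labels do not mention a solvent control, and nothing says that the 2 samples of a group came from separate cultures, so the p-values measure the spread between these samples, which may be technical. In GRCh38.p14, PLAU lies on chromosome 10 (73908832 to 73917494), PLAUR on 19 (43646095 to 43670169), PLAT on 8 (42174718 to 42207565), SERPINE2 on 2 (223975045 to 224039286), SERPINB2 on 18 (63887705 to 63903888), F3 on 1 (94529173 to 94541759), TFPI on 2 (187464230 to 187554435), TFPI2 on 7 (93885396 to 93890753) and THBD on 20 (23045633 to 23049672).

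Plasminogen activators are serine proteases that cut plasminogen, an abundant zymogen, into plasmin, which digests fibrin and also degrades extracellular matrix. Urokinase (PLAU) acts mainly at the cell surface, where it is held by its receptor (PLAUR), while tissue-type activator (PLAT) acts mainly on fibrin clots, and serpins trap the active proteases in covalent complexes. Coagulation starts when tissue factor (F3), a membrane protein, binds factor VII, and this step is blocked by the Kunitz-type inhibitor TFPI. Further down, thrombomodulin (THBD) binds thrombin and turns it towards activating the anticoagulant protein C. Many carcinoma lines express the urokinase receptor and tissue factor, and both genes are known to respond to growth factors and stress signals.

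Values are given as the normalized log2 signal, that is the log2 of the scanner's background-subtracted intensity after the arrays were scaled to the same 75th percentile (9.40 on the log2 scale). The share of probes that the scanner software called well above background was 66.7% and 66.4% on the arrays of control 1 and embelin 2, but 50.3% and 51.2% on those of control 2 and embelin 1. Changes are therefore also given within the pairs of arrays of like background, embelin 2 minus control 1 and embelin 1 minus control 2. By the array labels the controls were hybridized at slide positions 1 and 4 and the treated samples at 2 and 3. Of the 5 epithelial markers looked up, 4 were well above background on all 4 arrays (EPCAM, KRT8, KRT18 and KRT7), and the tight junction gene CLDN4 was on 3. CLDN4 was well above background on only 1 control array and was tested only because both embelin arrays were, which favours a higher value there. Its log2 fold change was 2.78 (adjusted p = 0.027 from limma) and rests partly on a control value near background. The other 4 had log2 fold changes of -0.56 to -0.12, none of them called. Summed epithelial markers were at 18.4 to 18.6 in controls and at 18.2 to 18.3 with embelin. None of the 5 endothelial markers was well above background on all 4 arrays, and the defining endothelial gene CDH5 was not well above background on any array. On the log2 scale the summed endothelial markers were at 6.14 and 6.93 in controls and at 6.08 and 6.20 with embelin. Summed blood cell markers were at 9.57 to 9.85 in controls and at 9.12 to 9.84 with embelin. They rest mostly on CD14, the 1 blood marker well above background on all 4 arrays (log2 fold change -0.60, adjusted p = 0.232 from limma). CD3E, well above background on only 1 control array, had 1.25 (adjusted p = 0.290 from limma). PTPRC at its brighter probe was at 7.57 on the array of embelin 1 and at 1.63 on that of embelin 2. Summed fibroblast markers were at 6.83 to 8.18 in controls and at 7.85 to 9.96 with embelin. COL1A1, the 1 fibroblast marker well above background on all 4 arrays, had a log2 fold change of 1.30 (adjusted p = 0.0546 from limma). Its other probes, each well above background on only 1 control array, gave 1.83 and 1.76. The highest fibroblast sum rests on COL1A2 and COL3A1, which reached 8.30 and 8.86 on the array of embelin 1 and were not well above background on the other 3 arrays. The part of other cells in the results was not tested.

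With embelin, the urokinase receptor rose 8.12-fold and was the 1 gene of the set to pass the adjusted test. Tissue factor, thrombomodulin and urokinase did not pass it, with log2 fold changes of 3.79, -1.42 and 0.87 (adjusted p = 0.0651, 0.0846 and 0.120 from limma). The groups overlapped for tissue-type activator and for both Kunitz inhibitors at their brighter probes. In bulk RNA like this, a change in the share of cells that make a transcript and a change in its amount per cell cannot be told apart. For 8 of the 9 genes a probe was marked well above background throughout 1 group or both, and these were tested among 17649 genes or transcripts. F3 passed this filter only through the embelin arrays, which favours a higher value there. Counts are therefore also given for the 7 genes well above background on all 4 arrays. SERPINB2 did not pass the filter. After adjustment over all genes tested limma called 1 of the 8 higher (PLAUR), against 1.25% of all genes called higher, and 0 lower, against 0.561% of all genes called lower. Without adjustment, limma's p was under 0.05 for 3 of the 8 higher (PLAU, PLAUR and F3; 2 of the 7 without F3) and for 1 lower (THBD), against 8.36% and 11.1% of all genes. The methods' t-test gave the same counts, 3 and 1, against 6.63% and 8.98% of all genes, with 0 after adjustment. At the methods' threshold, at least 2-fold and an unadjusted p under 0.05, with the p here from limma, 2 were higher (PLAUR and F3, or PLAUR alone among the 7), against 4.27% of all genes. By the same rule 1 was lower (THBD), against 3.99%. The groups did not overlap in 5 of the 8, or 4 of the 7 without F3, near the share among all genes measured on the 4 arrays, which was 51.8%. The median log2 fold change was 0.24 over the 8 and -0.01 over the 7, and that of all genes tested was -0.06. Since the set was chosen with earlier results of these data known, these counts are not an independent test of it.

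**Figure D1:**
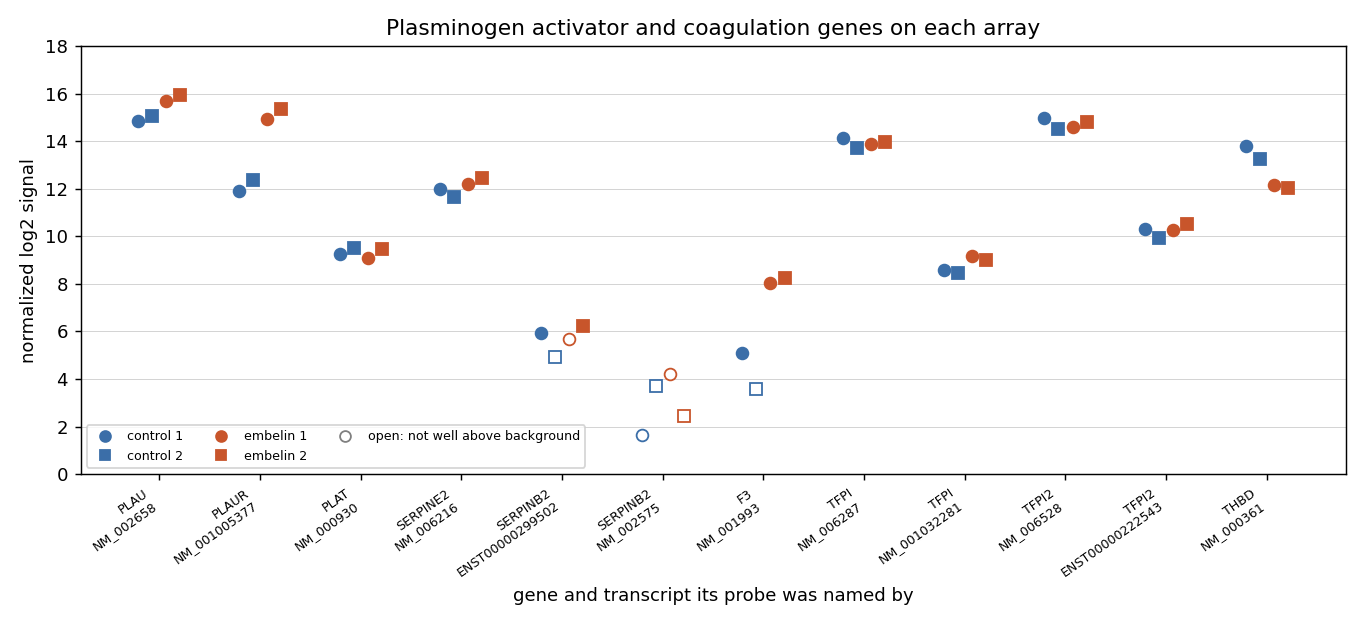
Normalized log2 signal (y axis) of the 12 probes of the 9 genes (x axis) on each of the 4 arrays, controls in blue and embelin in orange, with open symbols where the probe was not well above background. The embelin arrays lie above the control arrays for PLAUR (14.95 and 15.33 against 11.88 and 12.35) and F3, and below them for THBD.

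**Figure D2:**
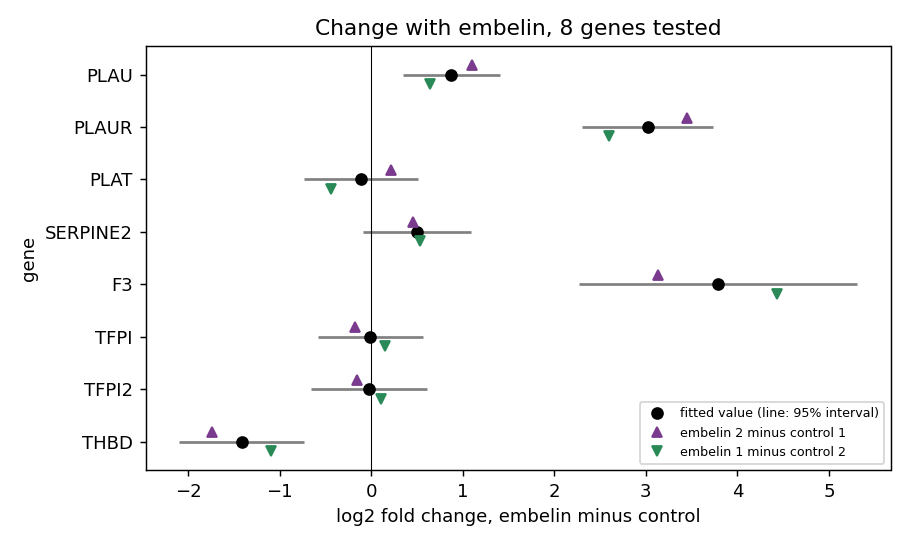
Log2 fold change with embelin (x axis) of the 8 genes tested, as the fitted value (black point) with its 95% interval (line), and within each pair of arrays of like background (triangles). The intervals of PLAU, PLAUR, F3 and THBD exclude 0, and those of PLAT, SERPINE2, TFPI and TFPI2 include it.

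PLAUR, the receptor that holds urokinase at the cell surface, had normalized log2 signals of 11.88 and 12.35 in controls 1 and 2 and of 14.95 and 15.33 in embelin 1 and 2. Both embelin arrays lay more than 2 log2 units above both controls, and the gap between the groups was 2.60. The mean went from 12.12 ± 0.33 to 15.14 ± 0.27 (SD over the 2 arrays of each group), an 8.12-fold rise. Its log2 fold change was 3.02 (standard error 0.26, 95% interval 2.31 to 3.74, adjusted p = 0.0336 from limma), the 99th largest rise among the 17649. Within the pairs of like background it was 3.45 and 2.60. The size of the rise stayed between 2.79 and 3.25 when 1 array was left out, but the call did not: its adjusted p from limma was then between 0.0658 and 0.172. The call was also lost with the replicate number as a block (adjusted p = 0.0686), the array background as a block (0.189), array position as a covariate (0.0984), no filter on dim probes (0.345) and the methods' t-test (0.214), all at the same log2 fold change of 3.02.

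PLAU, which encodes urokinase itself, was at 14.85 and 15.04 without embelin and at 15.68 and 15.95 with it. The groups did not overlap, and the mean was 1.83-fold higher. The log2 fold change was 0.87 (standard error 0.19, 95% interval 0.35 to 1.40, unadjusted p = 0.00961, adjusted p = 0.120 from limma), so it did not pass the adjusted threshold and did not reach 2-fold. The trend and robust options of limma's eBayes called it (adjusted p = 0.0248). PLAT, the tissue-type activator, was at 9.25 and 9.52 in the controls and at 9.07 and 9.46 with embelin. Its groups overlapped, and the log2 fold change was -0.11 (standard error 0.23, 95% interval -0.73 to 0.51, adjusted p = 0.839 from limma). The interval leaves room for changes in either direction of less than 2-fold.

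Of the inhibitors of plasminogen activators, SERPINE2 (protease nexin-1), which inhibits urokinase and thrombin, was at 12.01 and 11.66 in the controls and at 12.20 and 12.46 with embelin. The embelin arrays were higher by a gap of 0.19. The log2 fold change was 0.50 (standard error 0.22, 95% interval -0.09 to 1.09, adjusted p = 0.319 from limma), which did not pass the test. It was 0.33 without control 2 and 0.67 without control 1. SERPINB2 (plasminogen activator inhibitor type 2) gave weak signals. At the probe named by ENST00000299502 it was at 5.92 and 4.91 in the controls and at 5.66 and 6.24 with embelin, and it was well above background on 1 array of each group, control 1 and embelin 2, the arrays on which more probes passed that mark. At the probe named by NM_002575 it was at 1.64 and 3.69 in the controls and at 4.21 and 2.45 with embelin, and not well above background on any array. No change of SERPINB2 can be read from these values.

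F3, which encodes tissue factor, was at 5.11 and 3.59 without embelin and at 8.02 and 8.24 with it. The probe was well above background on both embelin arrays but only on the array of control 1, so that the mean of the controls (4.35 ± 1.08, SD over 2 arrays) rests partly on a value near background, while the embelin arrays lay close together (8.13 ± 0.16, SD over 2 arrays). Against control 1 alone, the embelin arrays were 2.91 and 3.13 log2 units higher. The fitted log2 fold change was 3.79 (standard error 0.56, 95% interval 2.27 to 5.30, unadjusted p = 0.00209, adjusted p = 0.0651 from limma) and was not called after adjustment. Since control 2 was not above background, this size, its error and its p rest on a control value that was not measured. It was 3.02 without control 2 and 4.55 without control 1. With normexp background correction of the unprocessed spot means, which raises the floor of dim spots, it was 1.93 (standard error 0.15) and was called (adjusted p = 0.0114), and it was also called with limma's trend and robust options (adjusted p = 0.0216). The sign was the same under each alternative in which F3 had a value, while the size depended on how the dim control signal was treated.

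TFPI, the Kunitz-type inhibitor of the tissue factor and factor VII complex, and its relative TFPI2, an extracellular inhibitor of plasmin and other serine proteases, had 2 probes each. The first 30 bases of these probes of 60 bases are shown, since the probes of 1 gene gave different values, together with those of the probes for PLAUR, F3 and THBD, on which the other results rest.
TFPI, probe named by NM_006287: agaacagattctactacaattcagtcattg
TFPI, probe named by NM_001032281: gccttctgcattcatgcatccatgttcttt
TFPI2, probe named by NM_006528: ctgtggagggaatgacaataactttgttag
TFPI2, probe named by ENST00000222543: ctttgaatgatgctgaaagctagaagcaaa
PLAUR, probe named by NM_001005377: acaggaccctgagctatcggactggcttga
F3, probe named by NM_001993: atacatggaaacgcaaatgagtatttcgga
THBD, probe named by NM_000361: acagggtctgcaaggtctttggttcagcta

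At the brighter TFPI probe (NM_006287) the signals were 14.12 and 13.72 in the controls and 13.87 and 13.94 with embelin. The embelin arrays lay between the controls, and the log2 fold change was -0.01 (standard error 0.21, 95% interval -0.59 to 0.56, adjusted p = 0.983 from limma). At the other TFPI probe (NM_001032281), which belongs to a different RefSeq transcript, the signals were 8.60 and 8.46 in the controls and 9.17 and 8.99 with embelin. Here the groups did not overlap. The difference of 0.55 on the log2 scale (adjusted p = 0.250 from limma with each probe counted on its own, standard error 0.19) did not pass the test. At the brighter TFPI2 probe (NM_006528) the signals were 14.96 and 14.50 in the controls and 14.61 and 14.80 with embelin, a difference of -0.02 on the log2 scale (95% interval -0.66 to 0.61, standard error 0.23, adjusted p = 0.970 from limma). The other TFPI2 probe was at 10.29 and 9.94 in the controls and at 10.25 and 10.52 with embelin, a difference of 0.27 on the log2 scale (adjusted p = 0.606 with each probe counted on its own, standard error 0.23). For both inhibitors the 95% interval at the brighter probe excludes a 2-fold change in either direction.

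THBD, which encodes thrombomodulin, the endothelial cofactor that lets thrombin activate protein C, was at 13.77 and 13.23 in the controls and at 12.14 and 12.03 with embelin. Both embelin arrays lay below both controls by at least 1.09. The mean was 2.67-fold lower, from 13.50 ± 0.39 to 12.08 ± 0.07 (SD over the 2 arrays of each group), the 493rd lowest log2 fold change of all genes tested. The log2 fold change was -1.42 (standard error 0.25, 95% interval -2.10 to -0.74, unadjusted p = 0.00409), and it missed the adjusted threshold (adjusted p = 0.0846 from limma). It was called when only probes well above background on all 4 arrays were tested (adjusted p = 0.0425) and with limma's trend and robust options (adjusted p = 0.0163). Within the pairs of like background the difference was -1.74 and -1.09, and with 1 array left out it was between -1.69 and -1.14.

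PLAT was left out of the promoter search, and no window was at hand for THBD. For the other 7 of the 9 genes, 9 RefSeq promoter windows of GRCh38.p14 were used, each with 250 bases before and 50 after an annotated start site. They were searched on both strands for an AP-1 motif (TGANTCA), a CRE (TGACGTCA), a C/EBP-ATF element (TGATGNAA), a hypoxia response element (ACGTG) and an EGR motif (GCGNGGGCG). AP-1 matches were in 4 of the 9 windows, those of PLAUR, SERPINB2, F3 and TFPI2, and in 7.71% of all 35116 windows of the table. EGR matches were in 3 of the 9 windows, those of PLAUR, F3 and TFPI2, and in 9.43% of all windows. The hypoxia response element was in the windows of 2 genes, PLAUR and SERPINE2, and in 21.4% of all windows, while the CRE and the C/EBP-ATF element were in 0 of the 9 and in 1.85% and 3.62% of all windows. Matches to different motifs did not overlap.

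The AP-1 match of PLAUR starts 186 bases before the start site and its EGR match 90 bases before it. F3 has AP-1 matches 223 and 210 bases before its start site and an EGR match 82 bases before it. TFPI2 has an EGR match 118 and an AP-1 match 87 bases before its start site. The 250 bases before the start site are shown in the direction of the gene for these 3 genes, which all lie on the minus strand, with the AP-1 and EGR matches in capitals. A match describes the letters of the window and not a bound site.
PLAUR, chr19:43670170-43670419: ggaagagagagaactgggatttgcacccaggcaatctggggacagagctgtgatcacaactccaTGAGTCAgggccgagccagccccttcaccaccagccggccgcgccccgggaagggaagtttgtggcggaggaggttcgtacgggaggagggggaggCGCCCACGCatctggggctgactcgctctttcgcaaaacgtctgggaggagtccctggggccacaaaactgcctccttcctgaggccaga
F3, chr1:94541760-94542009: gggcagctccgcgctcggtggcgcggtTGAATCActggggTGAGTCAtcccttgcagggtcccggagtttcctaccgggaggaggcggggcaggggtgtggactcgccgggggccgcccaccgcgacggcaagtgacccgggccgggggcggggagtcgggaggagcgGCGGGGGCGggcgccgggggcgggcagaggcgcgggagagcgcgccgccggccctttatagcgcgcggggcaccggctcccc
TFPI2, chr7:93890754-93891003: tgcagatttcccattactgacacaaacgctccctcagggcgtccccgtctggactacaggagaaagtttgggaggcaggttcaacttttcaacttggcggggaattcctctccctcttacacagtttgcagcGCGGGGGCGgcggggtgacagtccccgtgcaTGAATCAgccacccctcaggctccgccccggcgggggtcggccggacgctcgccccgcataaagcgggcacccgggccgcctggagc

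**Figure D3:**
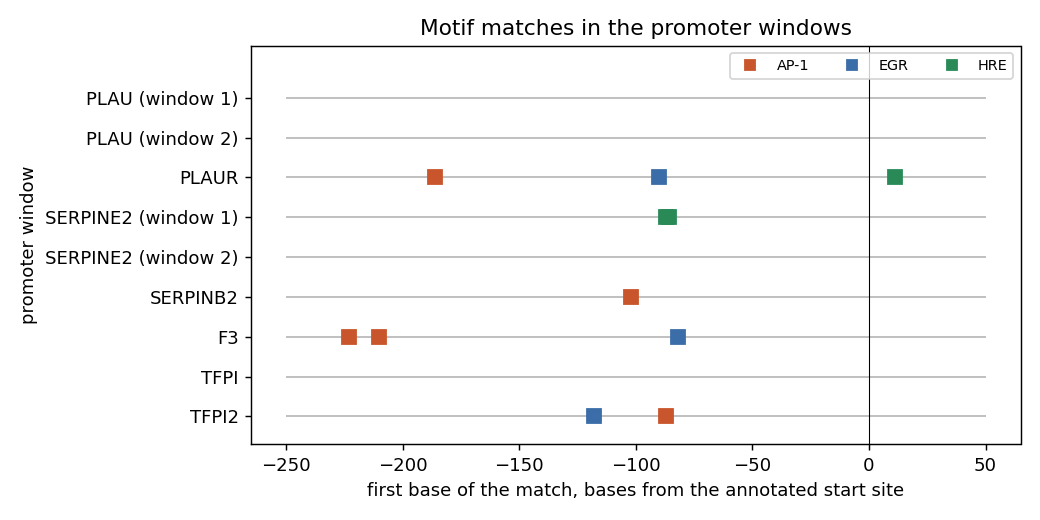
Motif matches in the 9 promoter windows of 7 genes, with the first base of each match in bases from the annotated start site (x axis, 0 at the start site) and a row per window. Matches to AP-1 are seen in PLAUR, SERPINB2, F3 and TFPI2, while both windows of PLAU, 1 of the 2 of SERPINE2 and that of TFPI hold none of the motifs searched.

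The other genes of the pathway were taken from 2 lists. Of 18 other genes of plasminogen activation, 14 were tested, 9 with a fitted log2 fold change above 0 and 5 below it, with a median of 0.06. After adjustment limma called 0 of them, and the methods' t-test 0. Without adjustment 3 were higher and 0 lower by limma (8.36% and 11.1% of all genes), and 2 higher and 0 lower by the t-test (6.63% and 8.98%). At the methods' threshold 3 were higher and 0 lower by limma (4.27% and 3.99% of all genes). SERPINB8, an intracellular serpin, was at 9.54 and 9.69 in the controls and at 10.89 and 11.02 with embelin. The change of 1.34 on the log2 scale (adjusted p = 0.0546 from limma, standard error 0.17) lay just outside the adjusted threshold, and the other kept probe of the gene was at 1.42. LRP1, the endocytic receptor that clears complexes of urokinase, its receptor and a serpin, was at 6.63 and 6.27 in the controls and at 7.63 and 8.62 with embelin. This came to 1.68 on the log2 scale (adjusted p = 0.133 from limma, standard error 0.40), and to 1.11 with normexp. Surface proteins that bind plasminogen gave log2 fold changes near 0, with 0.06 for ANXA2, 0.10 for S100A10, 0.07 for ENO1 and -0.03 for PLGRKT, 4 genes picked out after their values were seen. These are the values of the brightest probe, and the other kept probes of ANXA2 gave 0.26 and 1.63, the latter at a dim probe that cleared background in only 1 of the 2 controls.

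Of 35 other coagulation genes, 21 were tested, 8 with a fitted log2 fold change above 0 and 13 below it, with a median of -0.23. Again limma called 0 after adjustment, and the methods' t-test 0. Without adjustment 1 was higher and 2 were lower by limma (8.36% and 11.1% of all genes), and 1 higher and 3 lower by the t-test (6.63% and 8.98%). At the methods' threshold 1 was higher and 1 lower by limma (4.27% and 3.99% of all genes). The groups did not overlap in 15 of the 20 with a value on every array, against 51.8% of all such genes. F2RL1, the protease-activated receptor PAR2 that the tissue factor and factor VII complex can cleave, was at 9.08 and 9.83 in the controls and at 10.80 and 11.70 with embelin, a difference of 1.80 on the log2 scale (adjusted p = 0.137 from limma, standard error 0.43). SERPINA5, the protein C inhibitor, was at 6.66 and 7.26 in the controls and at 5.39 and 5.50 with embelin, a difference of -1.52 on the log2 scale (adjusted p = 0.0836 from limma, standard error 0.26). Only 1 of its 2 embelin values was well above background. SERPINA5, which is among the genes counted as lower, thus passed the filter only through the control arrays, which favours a lower value with embelin. With normexp it was -0.71 (adjusted p = 0.209 from limma). The other kept probe of SERPINA5 gave -1.12 (adjusted p = 0.230 from limma with each probe counted on its own). Protein C (PROC), protein S (PROS1) and the protein C receptor (PROCR) were picked out after their values were seen. They had log2 fold changes of -0.28, -0.48 and -0.16, with adjusted p of 0.485, 0.300 and 0.643 from limma. Thrombin (F2), which thrombomodulin binds, was at 0.23 (adjusted p = 0.496 from limma). The genes of the factors that tissue factor acts with, F7 and F10, did not pass the filter on dim probes.

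**Figure D4:**
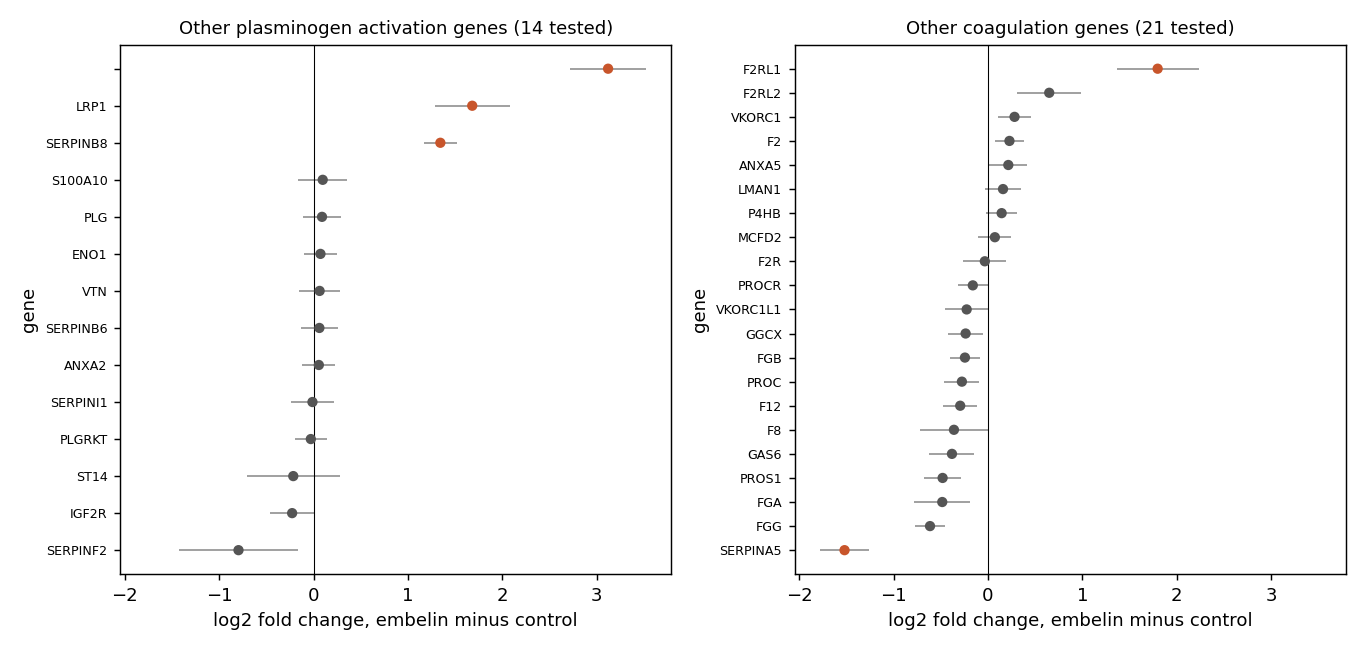
Log2 fold change with embelin (x axis, points; bars are the standard error) of the tested genes of plasminogen activation (left, 14) and coagulation (right, 21) that are not among the 9, a row per gene and 1 row without a name. Genes at the methods' threshold whose groups do not overlap are in orange, and most of the others lie within 0.5 of 0.

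**Figure D5:**
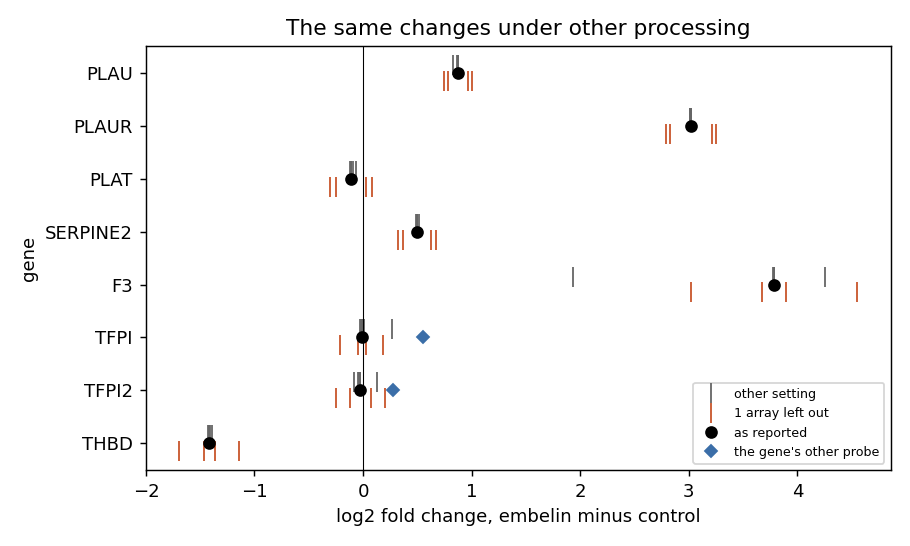
Log2 fold change with embelin (x axis) of the 8 tested genes as reported (black points), under other settings (grey bars), with 1 array left out (orange bars) and at the other probe of TFPI and TFPI2 (blue diamonds). PLAU, PLAUR, SERPINE2, F3 and THBD keep their side of 0 at each mark, and F3 spans 1.93 to 4.55.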

How the data were processed

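RNA of 2 control and 2 embelin samples of A549 cells was measured on 4 single-colour Agilent arrays of 1 slide. The authors deposited scanner files from Agilent's Feature Extraction software (10.7.3.1 per the file headers), whose intensity values had background subtracted and trends removed within each array, with surrogates in place of signals below background, and no scaling between arrays. Their deposited table of probe intensity values held the same signals averaged over spots, within 0.001 on the log2 scale for all but 97 to 117 probes per array. For their own analysis they scaled arrays by the 75th percentile and applied a t-test with a 2-fold limit.

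Here outlier spots were dropped, arrays were scaled to equal 75th percentiles, spots of a probe were averaged, values were floored at 1 and log2 was taken. A probe was kept if 1 group or both had it well above background throughout (26146 probes). The kept probe with the highest mean stood for a gene. Names came from RefSeq accessions for 28595 probes, from another probe of the same name for 2341 and from the files for 19302. The groups were compared by limma 3.58.1 (lmFit and eBayes, R 4.3.3), with Benjamini-Hochberg adjustment over 17649 genes or transcripts, and a gene was called at an adjusted p under 0.05. Precision is limited by the number of arrays: with 2 against 2, a two-sided exact permutation test has p = 0.333 as its smallest value. The fit was also run on simulated data with independent noise and no difference in background between arrays. That run cannot show how the calls depend on such a difference. Members, gene lists, motifs and tests were chosen with earlier results of these data known. All 9 genes were named with their values, and of the 2 lists the genes at the methods' threshold whose groups did not overlap. A gene that this rule covers is not reported here by name, while counts include it. The alternatives were normexp (offset 50), quantile normalization, the deposited table, no or a stricter filter on dim probes, eBayes with trend and robust, the methods' t-test, blocks for replicate number and array background, array position, the mean over probes, single probes, and each array left out.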

Additional observations from a re-analysis of the deposited data

How the results depend on the processing

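PLAUR kept its log2 fold change within 2.79 to 3.25 under each of its 16 alternatives and its call under 7 of them. The genes called higher of the set were 2 with normexp background correction (PLAUR and F3), 3 with limma's trend and robust options (PLAU, PLAUR and F3), and 0 with no filter on dim probes, the methods' t-test, the replicate block, the array background block, array position as a covariate or any 1 array left out (0 to 0), although 3 were higher at an unadjusted p under 0.05 in each of these fits. The genes called lower were 1 (THBD) with the filter that asked for all 4 arrays and with trend and robust. At the methods' threshold the stricter filter left 1 gene higher, since F3 was then not tested. Over all genes, 0 were called higher and 0 lower in the same settings in which the set had none, against 973 to 1673 higher and 994 to 2070 lower at an unadjusted p under 0.05. Those called higher and lower were 422 and 277 with normexp, 419 and 345 with the stricter filter, 566 and 495 with trend and robust, and 126 and 33 with the deposited table, and those called lower were 63 with quantile normalization, 56 with the mean over probes and 65 with single probes. Of the other plasminogen activation genes 2 were called with normexp, with the stricter filter and with trend and robust. The cause of these differences was not tested. Genes near 0 changed sign: PLAT was between -0.31 and 0.0823 with 1 array left out, 0.02 without control replicate 2 and 0.0823 without embelin replicate 1. TFPI was 0.0098 with normexp, 0.27 as the mean over its probes, 0.55 at its other probe, 0.19 without control replicate 1 and 0.02 without embelin replicate 1 (-0.21 to 0.19 over the arrays left out). TFPI2 was 0.12 as the mean over its probes, 0.27 at its other probe, 0.20 without control replicate 1 and 0.07 without embelin replicate 1 (-0.25 to 0.20). The replicate numbers do not pair the samples by the labels (same-numbered arrays deviated together with r = 0.175 over genes, and genes are not independent). Control 1 with embelin 2, a pair of like background, had r = -0.175, which follows from the first value where each group has 2 arrays. The replicate block ended the call of PLAUR and changed no other call of the set. The dim control signal limits F3, and SERPINB2 has no test without leaving dim probes in.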

Other observations

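The 3 fibrinogen chains, which A549 cells are known to make, were picked out after their values were seen. FGG was at 10.97 and 11.06 in the controls and at 10.45 and 10.35 with embelin, a difference of -0.61 on the log2 scale (standard error 0.16, unadjusted p = 0.0184, adjusted p = 0.161 from limma). FGB was at -0.24 (adjusted p = 0.477 from limma). FGA was at -0.48 at its brightest probe (adjusted p = 0.450 from limma), and at 0.30 and -0.65 at its other kept probes, so its direction depended on the probe. None of the 3 was called after adjustment.

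F2RL3, the protease-activated receptor PAR4, did not pass the filter on dim probes. At 1 of its 2 probes the signal was 8.24 on the array of embelin 1, against 3.78 on that of embelin 2 and 2.42 and 3.86 on the control arrays, and at its other probe the value of embelin 1 had been left out as an outlier. The same array had 743 outlier spots, against 47 to 296 on the other 3.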
